A study of Neurospora crassa with 12 samples.

Results

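The genes described here are 52 transcripts of Neurospora crassa whose level in fresh conidia was far above that at each later stage of germination. They were chosen by their measured levels: a stage 1 mean of at least 20 CPM and no later stage mean above 1/16 of it. CPM stands for counts per 1000000 counts of a library, with 2 rows of ribosomal RNA left out of the total. The rule took 52 of the 10592 genes in the count table (0.491%), or 1.16% of the 4500 genes that reached 20 CPM in stage 1. Each of the 52 is protein coding, and 18 carry a symbol in the RefSeq annotation of assembly NC12 (34.6%, against 11.5% of the 9757 protein coding genes).

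RNA sequencing was performed on macroconidia of strain FGSC2489 (mat A), taken from 5-day cultures and spread on cellophane over Bird medium, a synthetic medium for vegetative growth, at 37 °C under continuous white light. Tissue was collected at 4 stages with 3 libraries each: fresh conidia (stage 1), first polar growth (stage 2), extension of the germ tube until the long axis had doubled (stage 3) and the first hyphal branching (stage 4). Sample titles place these stages at 15, 60, 120 and 240 min, whereas the time tags give 15, 120, 240 and 360 min and a source label names potato dextrose agar. The methods tie the times of the titles to Bird medium and those of the tags to potato dextrose agar. Stages are called by number. One wild-type strain was used throughout, a stage was fixed by what most active spores were doing, and a library may also hold cells at other stages.

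Macroconidia are the dry, airborne asexual spores of N. crassa, coated with a rodlet layer of hydrophobin that makes them repel water. A resting conidium carries stored trehalose, protective enzymes and a pool of messages made while it formed on the aerial hypha. When it meets water and a carbon source it swells, selects a site of polar growth and extends a germ tube, and conidiation genes give way to those of vegetative growth.

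Total counts ranged from 42996748 to 71990884 per library. The share of ribosomal RNA was lowest in stage 4 replicate 2 (1.68%) and highest in stage 3 replicate 2 (37.9%). Over 4958 genes, the SD of the log2 difference between a stage 4 and a stage 2 library lay between 0.131 and 0.197, whereas 2 libraries of stage 4 differed by 0.181 to 0.216 and 2 of stage 2 by 0.170 to 0.201. Libraries of stages 4 and 2 were thus no further apart than libraries within each stage, although their labels place them on either side of stage 3. Whether labels of stages 2, 3 and 4 were exchanged was not tested, and each comparison of these stages is between libraries as labelled. Stage 3 stood 0.412 to 0.490 from stage 2, and stage 4 stood 0.420 to 0.504 from stage 3. Fresh conidia lay furthest off, at 1.38 to 1.42 from any later library. Of 5 macroconidial markers 4 are members, so their sum restates the rule and is no check of a label: it was 12091 to 15346 CPM in stage 1, 97.6 to 102 CPM in stage 2, 10.3 to 12.1 CPM in stage 3 and 79.9 to 112 CPM in stage 4.

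The difference between stage 1 and later stages was what chose these genes, so it is described and not tested. As a group they took 3.61% ± 0.296 of the counts in stage 1, 0.0728% ± 0.000491 in stage 2, 0.0562% ± 0.00199 in stage 3 and 0.0716% ± 0.00406 in stage 4 (SD, n = 3 each). The hydrophobin gene eas made up 32.3% of their stage 1 sum, and the 10 leading members 78.2%. Stage 1 means ran from 23.1 to 11677 CPM with a median of 138 CPM. The median member kept 2.44% of its stage 1 level in stage 2 (range 0.140% to 6.03%), 1.93% in stage 3 (0% to 6.15%) and 2.26% in stage 4 (0.1005% to 5.75%). The lowest stage 1 library of every member was at least 12.2 times its highest later library. In bulk tissue, fewer cells of a type and less RNA per cell cannot be told apart, and a share of counts falls when other transcripts rise.

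**Figure D1:**
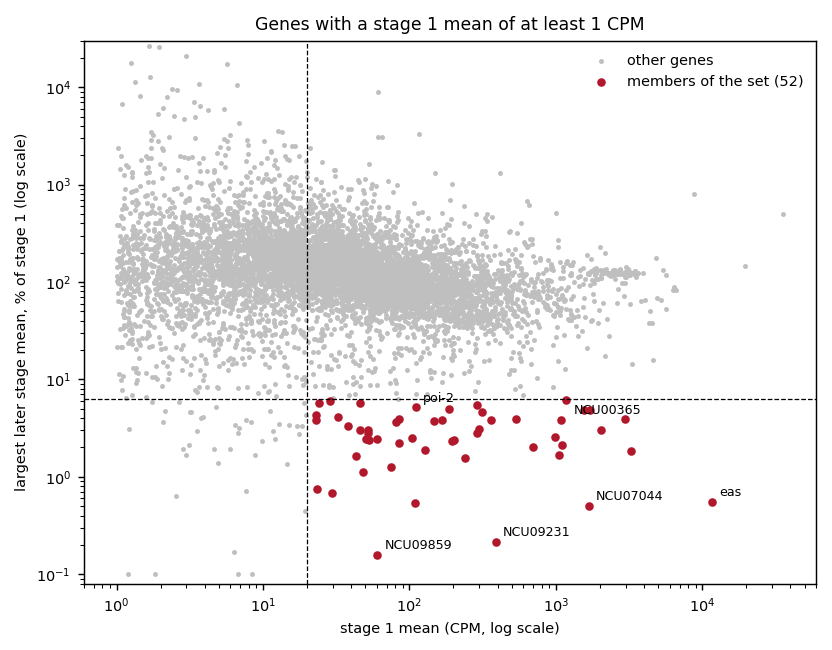
Each point is a gene with a stage 1 mean of at least 1 CPM: the horizontal axis is the stage 1 mean (CPM, log scale) and the vertical axis the largest later stage mean as % of stage 1 (log scale, values under 0.1% drawn at 0.1%), with dashed lines at the 2 thresholds. The 52 members, in red, fill the lower right corner, with eas at 11677 CPM furthest to the right and NCU09859 lowest.

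The set has no natural border at its thresholds. Just inside the ratio were NCU02179, NCU09287 and NCU00365, whose largest later means were 5.77%, 6.03% and 6.15% of stage 1. Just outside were ncw-3 (6.26%), NCU02579 (6.44%) and NCU01735 (6.87%). At the level threshold, NCU03991, NCU08727 and NCU06123 lay inside with 23.3, 23.2 and 23.1 CPM, and NCU16419, NCU07449 and NCU06506 lay outside with 19.7, 19.3 and 19.02 CPM. How far the members fell varied widely: the largest later mean was under 1% of stage 1 in 7 members, between 1% and 3% in 19 and over 3% in 26. Later means stayed under 1 CPM in 10 members, while 16 still reached 10 CPM or more in some later stage.

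The first group consists of conidiation genes, genes listed as conidially expressed and genes of the cell surface. Easily wettable (eas) encodes the hydrophobin of the rodlet layer and lies on chromosome II (3570905 to 3572798). It was measured at 13403, 10793 and 10836 CPM in the stage 1 libraries, 64.2, 64.0 and 65.5 CPM in stage 2, 6.06, 6.58 and 5.43 CPM in stage 3 and 52.4, 79.3 and 62.7 CPM in stage 4. Per kilobase of gene span, eas ranked 3 among all genes in stage 1, 1834 in stage 2, 6128 in stage 3 and 1837 in stage 4. Its largest later mean was 0.555% of stage 1, among the 5 smallest remainders in the set.

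The con genes were first isolated as messages that accumulate while conidia form. Con-6 had 1418, 894 and 994 CPM in stage 1, 24.9, 24.1 and 20.7 CPM in stage 2, 4.09, 3.18 and 2.97 CPM in stage 3 and 20.4, 22.7 and 19.9 CPM in stage 4. Con-8 had 349, 283 and 264 CPM in stage 1, 10.7, 8.46 and 8.44 CPM in stage 2, 1.16, 1.44 and 1.27 CPM in stage 3 and 5.19, 7.38 and 6.72 CPM in stage 4. In both genes the stage 3 libraries lay below every other library. Con-10 had 166, 114 and 105 CPM in stage 1, 1.95, 2.35 and 2.90 CPM in stage 2, 0.435, 0.856 and 0.616 CPM in stage 3 and 1.92, 2.55 and 2.76 CPM in stage 4. The clock-controlled gene ccg-1, also known as a glucose-repressible gene, had 1356, 914 and 902 CPM in stage 1, 19.97, 17.1 and 16.5 CPM in stage 2, 3.40, 5.07 and 3.13 CPM in stage 3 and 15.8, 17.6 and 18.01 CPM in stage 4. A second clock-controlled gene, ccg-13, fell to lower values: its means were 74.8 ± 24.4 CPM in stage 1, 0.936 ± 0.296 CPM in stage 2, 0.614 ± 0.307 CPM in stage 3 and 0.808 ± 0.489 CPM in stage 4 (SD, n = 3 each). The cell wall protein gene ncw-6 averaged 50.9 ± 14.03 CPM in stage 1 and between 0.979 and 1.26 CPM later.

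**Figure D2:**
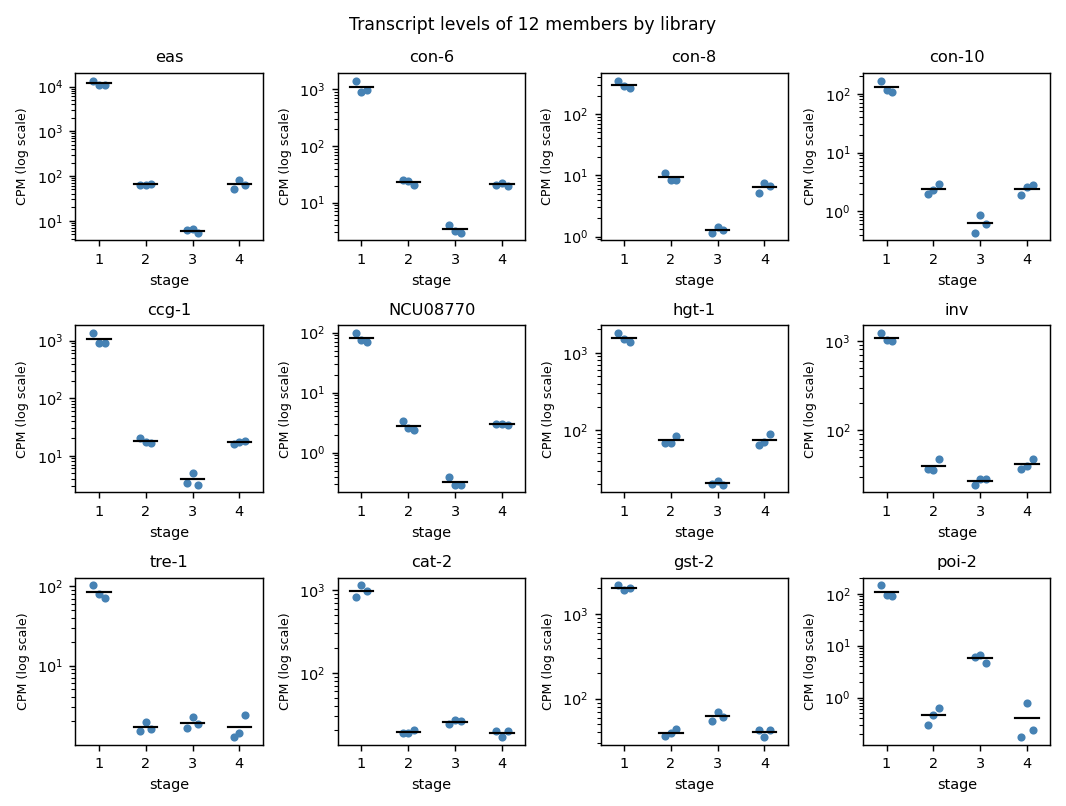
CPM of 12 members in each library (points, log scale) by stage, with the stage mean as a bar. Stage 1 lies above all later libraries in each panel, the stage 3 points lie lowest for eas, the con genes, ccg-1, NCU08770, hgt-1 and inv, and poi-2 alone of the 12 has its stage 3 libraries more than 5-fold above those of stages 2 and 4.

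A second group handles sugars. Hgt-1, a high-affinity hexose transporter gene, had 1799, 1491 and 1365 CPM in stage 1, 67.5, 68.8 and 84.7 CPM in stage 2, 19.97, 22.2 and 19.7 CPM in stage 3 and 64.1, 70.3 and 88.9 CPM in stage 4. It kept 4.80% of its stage 1 level in stage 4, against 0.555% for eas. Inv encodes invertase, which splits sucrose. It had 1222, 1021 and 994 CPM in stage 1, 36.5, 35.5 and 47.8 CPM in stage 2, 24.6, 28.3 and 28.8 CPM in stage 3 and 36.7, 39.8 and 47.7 CPM in stage 4. Tre-1 encodes a trehalase, which splits trehalose. It had 103, 79.1 and 71.3 CPM in stage 1 and between 1.25 and 2.40 CPM in the 9 later libraries, with all 3 later stages overlapping.

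Another group holds enzymes of detoxification. Cat-2, a catalase-peroxidase gene, had 836, 1155 and 970 CPM in stage 1, 18.9, 18.4 and 20.2 CPM in stage 2, 23.9, 26.5 and 26.1 CPM in stage 3 and 19.8, 16.7 and 19.6 CPM in stage 4. Gst-2, a glutathione S-transferase gene, had 2166, 1894 and 2004 CPM in stage 1, 36.2, 39.8 and 43.5 CPM in stage 2, 54.7, 70.2 and 60.2 CPM in stage 3 and 43.2, 35.4 and 43.2 CPM in stage 4. In both genes the 3 libraries of stage 3 were the highest of the 9 later ones, whereas those of eas and the con genes were the lowest.

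Genes with a role or a name in sexual development were also in the set. Poi-2, which is needed for protoperithecia and fertile crosses, had 146, 92.9 and 92.5 CPM in stage 1, 0.295, 0.459 and 0.639 CPM in stage 2, 5.95, 6.58 and 4.56 CPM in stage 3 and 0.174, 0.781 and 0.235 CPM in stage 4. Its stage 3 mean was 5.15% of the stage 1 mean, just under the threshold of 6.25%. App, the abundant perithecial protein gene, averaged 51.96 ± 10.4 CPM in stage 1 and between 1.13 and 1.45 CPM later. Of 7 markers of female and fruiting body structures these are the only 2 in the set. The marker sum was 237 to 307 CPM in stage 1, 63.1 to 65.3 CPM in stage 2, 63.7 to 65.0 CPM in stage 3 and 65.4 to 67.7 CPM in stage 4, with per-1 and pre-2 at or near 0 throughout. Since poi-2 and app are in this sum, most of its fall after stage 1 restates the rule. Most of the later sum was asd-4, which averaged 93.8 CPM in stage 1 and 60.4, 55.2 and 61.8 CPM in stages 2, 3 and 4.

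The other members with a symbol are 4 mig genes. Mig-4 averaged 3275 ± 43.6 CPM in stage 1 and mig-2 2984 ± 275 CPM, the next largest counts after eas. Per kilobase they ranked 15 and 30 among all genes in stage 1. Mig-2 still had 95.1 to 130 CPM in the later libraries, mig-4 46.2 to 67.0 CPM. Mig-8 (533 ± 87.0 CPM in stage 1) and mig-7 (187 ± 12.5 CPM) were less abundant.

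The remaining 34 members carry no symbol. The most abundant were NCU06603 (1717 ± 125 CPM in stage 1), NCU07044 (1677 ± 103 CPM) and NCU00365 (1176 ± 145 CPM). NCU07044 was among the most completely lost, at 5.01 to 9.72 CPM in later libraries or at most 0.506% of stage 1, whereas NCU00365 kept 45.8 to 83.0 CPM. The smallest remainders were those of NCU09859 and NCU09231. NCU09859 had 74.3, 53.2 and 53.5 CPM in stage 1 and no count in 5 of the 9 later libraries, stage 3 included, which makes it at least 1100-fold lower in stage 3 than in stage 1 if 3 counts per library are taken as the floor. NCU09231 had 437, 347 and 378 CPM in stage 1 and 0.242 to 1.16 CPM later, and NCU04697 had 109, 102 and 115 CPM in stage 1 and 0 to 1.61 CPM later.

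**Figure D3:**
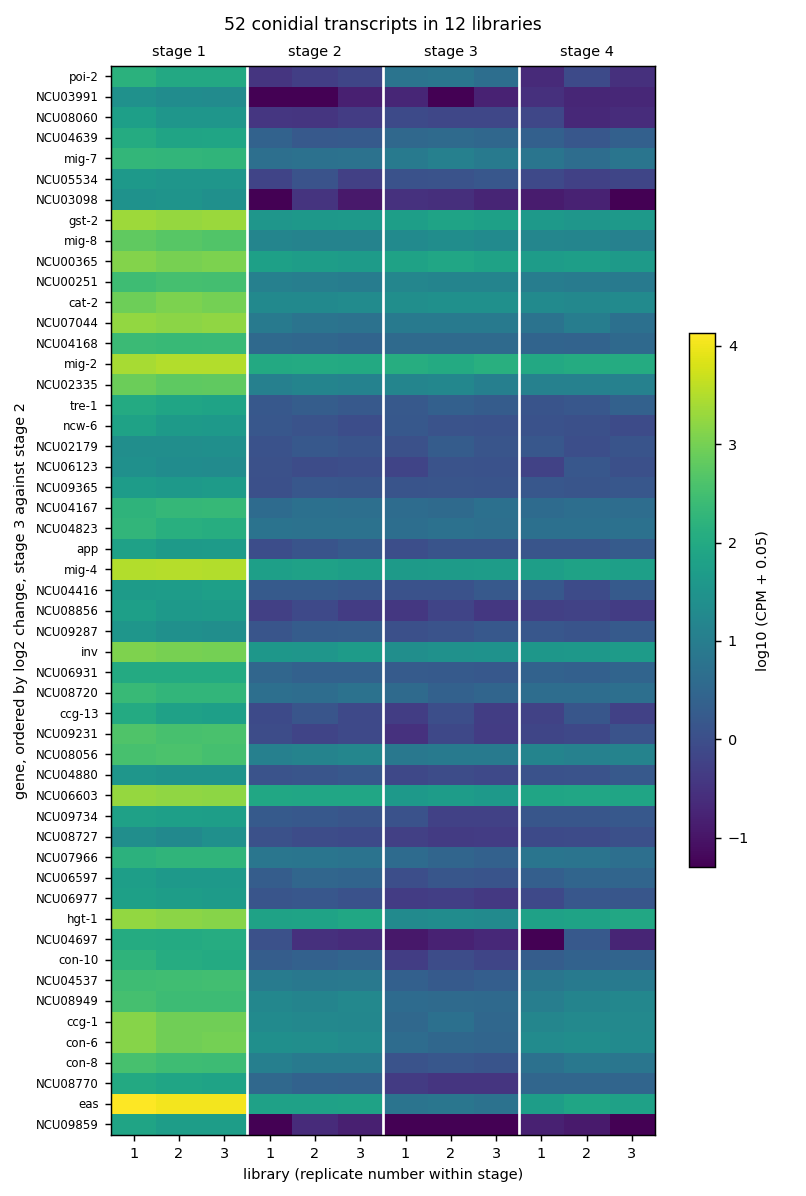
Heat map of the 52 members (rows, ordered by the log2 change of stage 3 against stage 2, largest rise on top) in the 12 libraries (columns, by stage), coloured by log10 of CPM plus 0.05. The stage 1 block is bright in every row, and the stage 3 block is darker than its neighbours in the rows at the bottom, which hold eas, con-8, con-6 and ccg-1.

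Stage 1 libraries were not alike for these genes. In 39 of the 52 members the highest library was stage 1 replicate 1, which exceeded the mean of the other two by a median ratio of 1.21, against 1.03 over the genes with at least 20 CPM. The median coefficient of variation in stage 1 was 13.4% for members and 7.60% for those genes. Con-6, ccg-1 and poi-2 showed the pattern plainly, with one value near 1.5 times the others, while cat-2 was lowest in that library. Without it, 49 genes met the rule, each of them a member.

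The comparison of stage 3 with stage 2 asks whether the levels left after germination still moved, and the rule did not contrast these stages. The members eas, con-6, con-8, con-10 and ccg-1 were lower in stage 3, while 8 members, poi-2, gst-2 and cat-2 among them, were higher. All 52 members passed the filter on low counts, which the stage 1 level alone allows. Of them 30 changed (57.7%, edgeR quasi-likelihood test, adjusted p below 0.05), against 39% of all 8330 genes tested. Lower in stage 3 were 22 members (42.3%, against 18.2% of all genes), and 8 were higher (15.4%, against 20.8%). The median log2 change was -0.42 over the members and 0.00 over all genes. Among the called members 15 were over 2-fold lower, as were 2.75% of all genes, and 1 was over 2-fold higher, as were 3.17%. Of the 50 members that averaged at least 10 counts in stage 3 or 2, 29 changed (8 higher, 21 lower, 14 of these over 2-fold), where 39.98% of all genes at that level did. Libraries of stages 3 and 2 did not overlap in 29 of the 30 called members, nor in 96.5% of all called genes.

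Among members with at least 10 counts in stage 3 or 2, the steepest fall was that of eas, with 6.06, 6.58 and 5.43 CPM in stage 3 against 64.2, 64.0 and 65.5 CPM in stage 2, a log2 change of -3.48 ± 0.15 (SE, edgeR adjusted p = 6.04e-09). NCU08770 had 0.387, 0.293 and 0.292 CPM in stage 3 against 3.36, 2.55 and 2.39 CPM in stage 2 (log2 change -3.11 ± 0.20). The log2 change was -2.89 ± 0.17 for con-8, -2.81 ± 0.17 for con-6, -2.28 ± 0.18 for ccg-1 and -2.02 ± 0.27 for con-10. Thus 5 of the 6 members on a list of conidiation and conidially expressed genes were called lower, where 18.2% of all genes were. The sixth, ccg-13, had a log2 change of -0.74 ± 0.45 with overlapping libraries. Hgt-1 (-1.89 ± 0.12) and inv (-0.61 ± 0.12) fell, whereas tre-1 had 1.61, 2.21 and 1.82 CPM in stage 3 against 1.50, 1.96 and 1.59 CPM in stage 2 and was not called (log2 change 0.09 ± 0.22). Unnamed genes moved as far: NCU08949 by -2.14 ± 0.14, NCU04537 by -2.04 ± 0.14 and NCU06977 by -1.73 ± 0.26. NCU09859 was called on few counts, with 0 in all 3 stage 3 libraries against 0, 0.187 and 0.0983 CPM in stage 2, so no fold is given.

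Poi-2 was higher in stage 3. It had 5.95, 6.58 and 4.56 CPM in stage 3 against 0.295, 0.459 and 0.639 CPM in stage 2, a log2 change of 3.51 ± 0.35 (edgeR adjusted p = 4.47e-06). The other rises were smaller: NCU04639 (0.79 ± 0.20), mig-7 (0.78 ± 0.13), gst-2 (0.58 ± 0.09), mig-8 (0.53 ± 0.11), NCU00365 (0.39 ± 0.12), NCU00251 (0.38 ± 0.11) and cat-2 (0.36 ± 0.11). NCU04639 and mig-7 share much of their span with another gene, and their values are uncertain where reads could be exchanged. NCU00365, NCU00251 and cat-2 each lost the call when any of several single libraries was left out. The call of cat-2 was lost without stage 2 replicate 1, 2 or 3 or stage 3 replicate 3 (edgeR adjusted p 0.0973, 0.103, 0.0551 and 0.093). That of NCU00365 was lost without stage 2 replicate 2 or 3 or stage 3 replicate 2 (0.064, 0.113 and 0.0747), and that of NCU00251 without stage 2 replicate 2 or 3 or stage 3 replicate 1 (0.0576, 0.1 and 0.0583). Scaled by library totals alone, these 3 rises, that of mig-8 and the fall of mig-4 (-0.35 ± 0.09) were not called. Once the 2 ribosomal RNA rows were left out of the totals, all of them were called. Among abundant members with no call, mig-2 had 122, 102 and 130 CPM in stage 3 against 97.8, 106 and 100 CPM in stage 2, and NCU07044 had 8.28, 8.38 and 8.79 CPM in stage 3 against 8.72, 5.99 and 5.39 CPM in stage 2.

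Markers of growing germ tubes and hyphae (pma-1, act, chs-1, tef-1 and hH3) summed to 31335 to 35477 CPM in stage 3 against 36300 to 36744 CPM in stage 2. Tef-1 was most of this sum, and these genes did not move together. Tef-1 averaged 24729 CPM in stage 3 against 28269 CPM in stage 2, and chs-1 203 against 264 CPM. Pma-1 (5192 against 4310 CPM) and hH3 (2363 against 2193 CPM) were higher, and act was level (1532 against 1533 CPM). Fresh conidia already had a sum of 25372 to 29108 CPM, so these genes set them apart from germ tubes only weakly. Pma-1 was at its highest in stage 1 (6334 CPM), whereas act, chs-1, tef-1 and hH3 were at their lowest there. The macroconidial markers, mostly members, summed to 10.3 to 12.1 CPM in stage 3 against 97.6 to 102 CPM in stage 2, and the part of a changed mix of cells in these results was not tested. Without stage 3 replicate 2, the library with most ribosomal RNA, 29 members changed, 7 higher and 22 lower, and 34.5% of all genes.

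**Figure D4:**
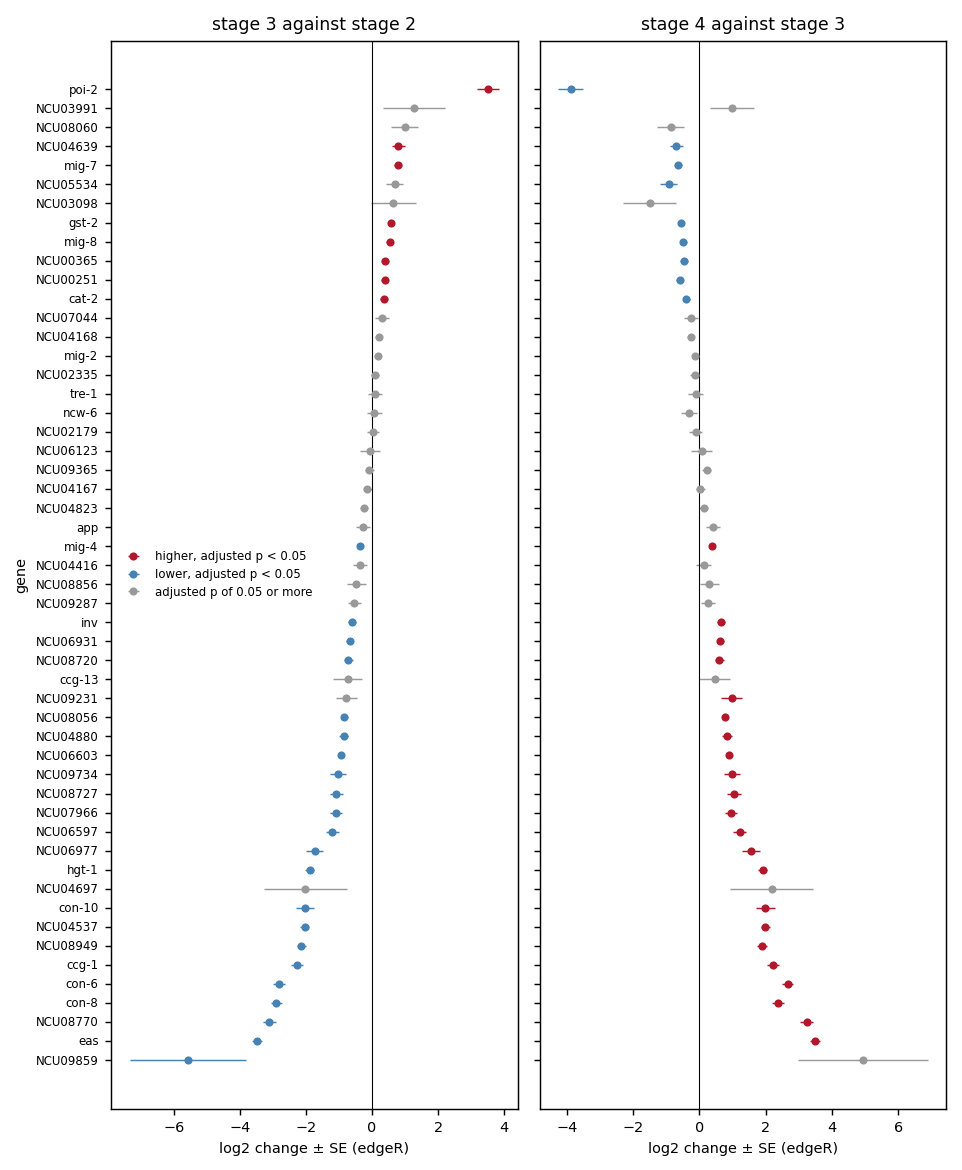
Log2 change with its standard error for the 52 members named at the left, stage 3 against stage 2 in the left panel and stage 4 against stage 3 in the right panel, coloured red for higher and blue for lower at an edgeR adjusted p below 0.05. Eas, NCU08770, con-8, con-6 and ccg-1 lie far to the left in the first panel and far to the right in the second, and poi-2 does the reverse.

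In stage 4, eas, con-6, con-8, con-10 and ccg-1 were higher than in stage 3, and poi-2 was lower. This comparison shares the stage 3 libraries with the one before, so that a shift in those libraries enters both with opposite sign. Of the 52 members 31 changed (59.6%, against 39% of all genes): 22 were higher (42.3%, against 18.2%) and 9 were lower (17.3%, against 20.8%). The median log2 change was 0.39 over the members. Over 2-fold higher were 12 members, against 2.64% of all genes, and over 2-fold lower was 1, against 3.34%. Libraries did not overlap in 30 of the 31, nor in 93.8% of all called genes. Of the 50 members that averaged at least 10 counts in stage 4 or 3, 31 changed, where 39.98% of all genes at that level did. Without stage 3 replicate 2 the counts were again 22 higher and 9 lower (35.2% of all genes called).

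Eas had 52.4, 79.3 and 62.7 CPM in stage 4 against 6.06, 6.58 and 5.43 CPM in stage 3, a log2 change of 3.49 ± 0.15 (edgeR adjusted p = 7.45e-09). NCU08770 rose by 3.24 ± 0.20, con-6 by 2.67 ± 0.17, con-8 by 2.37 ± 0.17, ccg-1 by 2.21 ± 0.18 and con-10 by 1.99 ± 0.27, whereas ccg-13 was not called (0.46 ± 0.47). The stage 4 levels remained far under those of fresh conidia, at 0.555% for eas, 1.91% for con-6 and 2.15% for con-8. Hgt-1 had 64.1, 70.3 and 88.9 CPM in stage 4 against 19.97, 22.2 and 19.7 CPM in stage 3 (1.90 ± 0.12), and inv rose by 0.66 ± 0.12.

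Poi-2 had 0.174, 0.781 and 0.235 CPM in stage 4 against 5.95, 6.58 and 4.56 CPM in stage 3 (-3.89 ± 0.37, edgeR adjusted p = 3.34e-06). NCU05534 (-0.93 ± 0.27), NCU04639 (-0.70 ± 0.20), mig-7 (-0.65 ± 0.13), NCU00251 (-0.60 ± 0.11), gst-2 (-0.55 ± 0.09), mig-8 (-0.49 ± 0.11), NCU00365 (-0.47 ± 0.12) and cat-2 (-0.40 ± 0.11) were also lower. Leaving out a single library could end 3 of these calls. NCU05534 was no longer called without stage 3 replicate 3 or stage 4 replicate 2 or 3 (edgeR adjusted p 0.0696, 0.0613 and 0.0538), cat-2 without stage 3 replicate 3 or stage 4 replicate 2 (0.0635 and 0.0857), and NCU04639 without stage 4 replicate 2 (0.0603). Scaled by library totals alone, gst-2, mig-8, NCU00365 and cat-2 were not called, but with totals that left out the ribosomal RNA rows they were.

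Between stage 4 and stage 2 edgeR called 0 members and 0% of all genes. At an unadjusted p below 0.05 there were 2 members among 136 genes (1.63% of those tested), and DESeq2 also called 0 members. The 2 were con-8, with 5.19, 7.38 and 6.72 CPM in stage 4 against 10.7, 8.46 and 8.44 CPM in stage 2 (log2 change -0.52 ± 0.14), and NCU03991, which averaged under 10 counts per library in both stages. Over the 50 members with a mean of at least 10 counts in some later stage, log2 changes ran from -0.87 (NCU03098) to 0.19 (NCU09231). NCU03098 reached that level only in stage 3: it averaged 6.67 counts in stage 2 and 3.33 in stage 4, and its SE was 0.88. In 48 of the 50 the estimate was within 0.5 of 0, with a median SE of 0.15. Missing the threshold does not show that levels were equal.

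Members lay on all 7 chromosomes, with 11 on chromosome VII (1.05% of its 1047 protein coding genes), 10 on I, 9 each on IV and V, 5 on VI and 4 each on II and III. Next to another member were 4 of them (7.69%, against 1.06% of protein coding genes that have a member beside them), and 14 had another within 5 genes (26.9%, against 4.83%). Con-6 (chromosome III, 5205042 to 5205927) stands 699 bp from NCU08770 (5203616 to 5204342), and both were lowest in stage 3. The other adjacent pair, NCU04167 and NCU04168 on chromosome V, kept 2.20% and 1.56% of stage 1 in stage 3, with no call in either later comparison. Con-8 and NCU09231 are 3 genes apart on chromosome I. Poi-2 (chromosome VII, 3759615 to 3760745) and cat-2 (3764986 to 3767954) are 2 genes apart, and both were higher in stage 3 than in stage 2, by very different amounts. Wider pairs were NCU04537 with app on chromosome VII, NCU08056 with NCU08060 on I and NCU06597 with NCU06603 on IV. Coordinates are those of NC12.

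Of the 177 genes in 20 predicted secondary metabolism clusters (SMCs), 3 were members (1.69%, against 0.491% of the whole table): ncw-6 in SMC no. 1, app in SMC no. 18 and poi-2 in SMC no. 20. Member genes spanned a median of 1796 bp, against 2127 bp for protein coding genes. The span of 11 members overlaps another gene (21.2%, against 23.8%). The overlap is long for 3 of them, whose values are uncertain where reads of the 2 genes could be exchanged, since the direction of the genes was not used here. The whole of inv (2375 bp) lies within NCU04264, which held 18.7 to 19.8 CPM at all 4 stages. Mig-7 shares 1197 bp with NCU02221, whose means were 10.4, 23.5, 18.8 and 24.1 CPM in stages 1, 2, 3 and 4. NCU04639 shares 1097 bp with NCU16952, whose means were 27.9, 34.4, 43.6 and 32.8 CPM. NCU16952 was thus highest in stage 3, where NCU04639 was highest among later stages, whereas NCU02221 was lower in stage 3 than in stages 2 and 4. The part of the overlap in these changes was not tested.

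Other genes of the same pathways were taken from lists of conidiation, light, stress, reserve and mating genes, to see how genes outside the rule moved. Of 74 symbols 63 were found and 9 of these are members. Among the 51 tested genes that are not members, 38 were lower and 8 higher in stage 2 than in stage 1 (edgeR adjusted p below 0.05), where 77.3% of all genes were called, 37.9% lower and 39.4% higher. The lists were drawn up with earlier results of these data known, so these counts describe the listed genes and do not test the pathways. A call of lower need not mean loss: the median log2 change of the 51 was -0.80, and csp-2 changed by only -0.34 ± 0.06.

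The other 4 genes on the list of conidiation and conidially expressed genes all fell. Con-13, which lies 1555 bp from con-10 on chromosome IV, had 9.82, 7.81 and 7.55 CPM in stage 1, too little for the rule, and no count in any of the 9 later libraries, at least 138-fold lower in stage 4 than in stage 1 with a floor of 3 counts per library. The log2 change was -2.59 ± 0.34 for ccg-9, a trehalose synthase gene, -2.33 ± 0.09 for ccg-14 and -0.67 ± 0.08 for ccg-6. Ccg-9 was scarce throughout, with means of 1.48, 0.260, 1.70 and 0.234 CPM in stages 1, 2, 3 and 4. Of 9 conidiation regulators 7 were lower, among them fl (-1.90 ± 0.10), the main activator of macroconidiation, csp-1 (-1.68 ± 0.09) and rca-1 (-1.08 ± 0.07), and acon-3 was higher (0.88 ± 0.15). No regulator met the rule. These genes did not all follow eas at the next step: ccg-14 was lower in stage 3 than in stage 2 (-1.02 ± 0.09), but ccg-9 was higher (2.66 ± 0.35), as were 4 regulators (ada-6, acon-3, ve-1 and fld), with csp-2 lower. In stage 4 against stage 3, ccg-9 (-2.87 ± 0.36) and the same 4 regulators were lower.

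Light, clock and carotenoid genes counted 17, of which 13 were lower and 2 higher. The clock gene frq averaged 53.6 ± 1.77 CPM in stage 2 against 478 ± 51.6 CPM in stage 1 (-3.23 ± 0.10). The opsin gene nop-1 (-4.33 ± 0.33), the carotenoid genes al-2 (-2.71 ± 0.07) and cao-2 (-2.62 ± 0.08) and the photoreceptor gene vvd (-1.79 ± 0.07) fell as well, while al-3 (1.24 ± 0.06) and ylo-1 (0.87 ± 0.06) rose. Nop-1 had 11.04 CPM in stage 1 and so did not reach the level the rule asks for.

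Stress genes were mixed. Of 12 outside the set 9 were lower and 2 higher, and sod-1, a superoxide dismutase gene, had 632 ± 30.4 CPM in stage 2 against 166 ± 8.18 CPM in stage 1 (1.85 ± 0.06). The catalase genes differed from cat-2 at the next step. Cat-1 had 3.16, 2.64 and 3.47 CPM in stage 3 against 19.8, 20.6 and 18.004 CPM in stage 2 (-2.70 ± 0.15), and cat-3 had 18.9, 15.9 and 18.4 CPM in stage 3 against 110, 109 and 106 CPM in stage 2 (-2.66 ± 0.17). Of the reserve genes, tre-2 (0.61 ± 0.07), a second trehalase gene, and gnn (1.10 ± 0.09), for glycogenin, were higher in stage 2, unlike tre-1. Of 3 tested mating genes outside the set all were lower, led by ccg-4, a pheromone precursor gene, with 0.350 ± 0.177 CPM in stage 2 against 17.8 ± 0.803 CPM in stage 1 (-5.77 ± 0.29). Of 4 tested fruiting body genes 2 were lower and 1, pp-1, was higher (1.15 ± 0.08).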

How the data were processed

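Oligo(dT)-purified RNA of 12 samples was sequenced from strand-specific libraries. According to the methods and labels, the authors aligned reads with HISAT2 2.1.0 and derived counts per gene with StringTie 1.3.3b, after base calling with CASAVA 1.8.2. The deposited table holds expected counts, whole numbers derived from read coverage without normalization. Floors set in counts therefore cover counting error only, whereas SDs and standard errors also include the spread between libraries. Strand was set in the alignment, per the methods. A second deposited table, with the authors' relative expression ratios, their intervals and fit statistics, was not used here.

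Members were found on CPM without the 2 ribosomal RNA rows NCU17319 and NCU15719. The members and gene lists were chosen with earlier results of these data known. Names and coordinates come from the RefSeq table of assembly NC12, and products, promoters and proteins were not used here. The filter filterByExpr, at a minimum count of 10 and a minimum total of 15, left 8330 genes. After scaling by TMM factors (0.730 to 1.09), edgeR 4.0.16 (R 4.3.3, limma 3.58.1) was run in its quasi-likelihood form on all 12 libraries with a coefficient for each stage. The biological coefficient of variation was 10.8%. F tests were adjusted by the Benjamini-Hochberg method over all genes tested, with a threshold of 0.05. A standard error is the absolute log2 change divided by the root of F. Replicates came from several plates of a collection, and p-values therefore measure only the spread between these libraries. A count of 3 equalled 0.0449 to 0.0710 CPM.

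Genes named are the 10 members with the largest stage 1 mean, those in a gene list, the 5 with the smallest remainder (later means set to no less than 3 counts), for stage 3 against 2 and stage 4 against 3 the 5 with the largest called rise and the 5 with the largest called fall without overlap of libraries and with at least 10 counts in the higher stage, the 3 on each side of each threshold, other members with a symbol, and neighbours. NCU08949, NCU06977, NCU03098 and the list genes outside the set were chosen after their values were seen. The edgeR test was tried on simulated counts. Alternatives were DESeq2 1.42.0, other scalings, no filter, stages 2 to 4 alone, the replicate number as a block, other thresholds of the rule and each library left out in turn. Tables were made with Python 3.11.15, pandas 2.3.3 and numpy 2.4.6 and figures with matplotlib 3.10.9.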

Additional observations from a re-analysis of the deposited data

How the results depend on the processing

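The members changed between stages 3 and 2 numbered 30, and those changed between stages 4 and 3 numbered 31. Leaving out single libraries gave 27 to 34 and 29 to 33, with 31.4% to 44.2% and 32.8% to 44.6% of all genes called. DESeq2 gave 32 and 32, with 41.9% and 42.7% of all genes called. Library totals gave 26 (4 higher, 22 lower) and 28 (23 higher, 5 lower), with 18% and 20.5% of all genes called. With the later limit set to 1/8 of stage 1 the rule took 98 genes, of which 59 and 60 changed, and with 1/32 it took 30, of which 14 and 14 changed. The share of all genes called was 39% in both comparisons, as in the main fit. With 1/32 the share of members called came closer to it than in the main set. Leaving out single libraries, the rule took 49 to 58. The median log2 change of members moved to -0.53 (stage 3 against 2) and 0.53 (stage 4 against 3) with library totals, which shift the median of all genes to -0.10 and 0.13, and to -0.25 and 0.23 with 1/8. Without single libraries it lay between -0.53 and -0.34 and between 0.29 and 0.50. No alternative called a member between stages 4 and 2. Genes of the lists changed between stages 2 and 1 numbered 55, with 77.3% of all genes called. Under the alternatives they numbered 53 to 57, with 67% to 77.7% of all genes called. For the 37 called changes of single members that were recomputed, 678 of 703 alternatives kept direction and call, 25 lost the call and 0 turned the direction. Library totals ended the calls of mig-4, NCU00365, cat-2, mig-8 and NCU00251 for stage 3 against 2 and of gst-2, NCU00365, cat-2 and mig-8 for stage 4 against 3. Those totals include the 2 ribosomal RNA rows, which held 37.7% of the counts in stage 3 replicate 2. Totals without these rows kept all of the calls. For stage 3 against 2 the edgeR adjusted p was then 0.00676, 0.00904, 0.00761, 0.0011 and 0.0028, in the order given. Why the calls were lost was not tested.

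Replicate numbers did not pair the libraries: 6 of 18 same-number pairs had deviations correlated above 0.1 (-0.39 to 0.33), and the own number correlated best in 14 of 36 cases. With the replicate block 31 members changed from stage 2 to 3 (37.6% of all genes), 32 from stage 3 to 4 (38%) and 0 in stage 4 against stage 2 (0%). Depth limits the members lowest in later stages: NCU09859 and NCU03991 had under 10 counts per library on average in each of them.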
